A study of Mus musculus with 9 samples.

Results

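Within 15 Mb of Shank3 on mouse chromosome 15, 7 genes separated the striatum of Shank3 knock-out mice from that of wild-type littermates: Dennd6b, Cpne8, Adamts20, Cers5, Csrnp2, Cela1 and Acvrl1. They were chosen by these KO and WT values, none of the 3 KO libraries of a gene falling among its 3 WT libraries, so the difference between KO and WT is given as a description and was not tested. The 7 genes are 7 of the 15464 genes in the table. They are also 7 of 21 genes that met this condition among the 386 tested genes within 15 Mb of Shank3, and what set them apart from the other 14, described further on, is not given in the sources used here. Cpne8, Adamts20, Cers5 and Csrnp2 were higher in KO, and Dennd6b, Cela1 and Acvrl1 were lower.

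Striatal RNA was sequenced from 9 male mice aged 10 to 12 weeks on a C57BL/6J background, with 1 library per mouse and 3 mice each of WT, HET and KO genotype. HET and KO mice carry the Shank3B allele, in which an internal group of Shank3 exons is targeted, leaving 1 intact allele in HET and 0 in KO, against 2 in WT. The allele is present in every cell from conception, and the strain in which it was first made is not given in the sources used here. Values are normalized counts per gene, that is, read counts estimated by Salmon and divided by DESeq2 size factors. Their sums ran from 31354274 to 32888468 in WT, from 30830020 to 33790296 in HET and from 30898890 to 33397415 in KO libraries, and the depth in reads is unknown.

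Libraries were not alike within genotypes. On the main axis of variation (33.6% of variance in a principal component analysis), HET replicate 3 and KO replicate 3 stood at scores of 33.8 and 34.2, while the other 7 libraries lay between -17.0 and 1.35. The dissection was checked with 10 markers of medium spiny neurons, the principal striatal neurons, all of which were present and led by Ppp1r1b at 22601 normalized counts. Their summed level was 104169, 117943 and 59597 in WT replicates 1, 2 and 3, then 103287, 85062 and 87592 in HET and 88909, 76730 and 51328 in KO. WT replicate 3 and KO replicate 3 were thus the lowest. KO and WT libraries overlapped in every one of the 10 markers, while they separated in 4.54% of all genes. All 10 markers had a lower mean in KO than in WT, with a median log2 difference of -0.26. The part of this difference in the values of the 7 genes was not tested. In bulk tissue, fewer cells of a type and less RNA per cell cannot be told apart.

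The 7 genes have unrelated functions. Acvrl1 encodes ALK1, a type I receptor of the TGF-beta superfamily that binds the circulating ligands BMP9 and BMP10 on endothelial cells, signals through Smad proteins and keeps vessels quiescent. Cers5 encodes a ceramide synthase of the endoplasmic reticulum, which joins a fatty acid to a sphingoid base, the central step of sphingolipid synthesis. Adamts20 is a secreted metalloprotease of the extracellular matrix known for its role in the spread of pigment cells in the embryo, and Cela1 belongs to the digestive elastases of the pancreas. Among the intracellular proteins, Cpne8 is a copine, a calcium-dependent phospholipid-binding protein, Dennd6b carries a DENN domain, which activates small Rab GTPases of membrane traffic, and Csrnp2 belongs to a family of cysteine- and serine-rich nuclear proteins that bind DNA.

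Shank3 itself, a scaffold of the excitatory postsynapse, lies on the plus strand at chr15:89499623-89560261 (GRCm38). It measured 7209, 8812 and 6043 normalized counts in WT, 7575, 7098 and 8050 in HET, and 10237, 10798 and 10578 in KO. The KO libraries were above every WT and HET library, and HET overlapped WT. The gene-level value adds up all transcripts of Shank3, also those outside the targeted exons, so it does not check the genotype labels. On the scale used throughout, log2(normalized count + 1), the KO mean was 0.54 above WT and the HET mean 0.06 above (SE 0.13).

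Of the genes lower in KO, the receptor gene Acvrl1 (ENSMUSG00000000530, chr15:101128522-101145336, plus strand, 11.6 Mb telomeric of Shank3) differed most. WT libraries held 1371, 1471 and 984.2 normalized counts, HET libraries 1460, 785.1 and 1261, and KO libraries 757.7, 462.6 and 588.6. Every KO library was below every other library, while the HET libraries ran from close to the highest WT value down to close to the highest KO value. The means were 1276 ± 257 in WT, 1169 ± 347 in HET and 603.0 ± 148 in KO (SD, n = 3), so that KO was 52.7% below WT, a log2 difference of -1.09. A noncoding gene, Gm16031, lies antisense within Acvrl1. Library preparation kept the strand, but whether the quantification used it is not given in the sources used here.

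Cela1 (ENSMUSG00000023031, chr15:100674421-100687921, minus strand, 11.1 Mb from Shank3) was the least expressed of the 7. It measured 38.01, 51.24 and 68.43 normalized counts in WT, 59.16, 36.03 and 51.46 in HET, and 25.82, 18.86 and 35.7 in KO. KO replicate 3 reached almost the level of WT replicate 1 and of HET replicate 2, and the gap between KO and WT, 0.09 on the log2 scale, was the smallest among the 7. Mean levels were 52.6 ± 15.2 in WT, 48.9 ± 11.8 in HET and 26.8 ± 8.46 in KO, with KO 49.0% below WT (log2 difference -0.95). Of 6 other enzymes of pancreatic acinar cells, 3 were in the table, with a summed level of 42.4 ± 16.3 in WT and 44.0 ± 10.0 in KO.

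Dennd6b (ENSMUSG00000015377, chr15:89182213-89196496, minus strand) is the nearest of the 7 to Shank3, at 0.303 Mb, and the only one on its centromeric side. Its normalized counts were 2427, 2531 and 2593 in WT, 2239, 2172 and 1919 in HET, and 2079, 2095 and 1997 in KO. All 3 HET libraries were below all WT libraries and overlapped the KO libraries. The HET mean of 2110 ± 169 was close to the KO mean of 2057 ± 52.6, against 2517 ± 83.7 in WT. KO was 18.3% below WT (log2 difference -0.29). The microRNA gene Mir6958 lies within Dennd6b on the same strand.

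Of the genes higher in KO, the ceramide synthase gene Cers5 (ENSMUSG00000023021, chr15:99734881-99772885, minus strand, 10.2 Mb from Shank3) measured 1131, 1026 and 1137 normalized counts in WT, 1052, 1257 and 1232 in HET, and 1544, 1382 and 1496 in KO. KO libraries were above every WT and HET library, and HET replicate 1 was within the WT range while HET replicates 2 and 3 were above it. The means were 1098 ± 62.3, 1180 ± 112 and 1474 ± 83.0 in WT, HET and KO, and KO was 34.2% above WT (log2 difference 0.42). An antisense noncoding gene, Gm17058, overlaps Cers5.

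Adamts20 (ENSMUSG00000022449, chr15:94270163-94465418, minus strand, 4.71 Mb from Shank3) measured 553.8, 477.4 and 509.2 normalized counts in WT, 643.5, 564.3 and 649.0 in HET, and 754.8, 640.1 and 648.8 in KO. As with Dennd6b, each HET library was on the KO side of every WT library, and HET and KO libraries overlapped. Mean levels were 513.5 ± 38.4 in WT, 618.9 ± 47.4 in HET and 681.3 ± 63.9 in KO, which was 32.7% above WT (log2 difference 0.41).

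Cpne8 (ENSMUSG00000052560, chr15:90487482-90679432, minus strand, 0.927 Mb from Shank3) measured 830.3, 693.2 and 754.4 normalized counts in WT, 741.8, 758.3 and 858.2 in HET, and 898.1, 1025 and 921.5 in KO. HET replicates 1 and 2 were within the WT range, HET replicate 3 was just above it, and KO was above all of them. The KO mean of 948.1 ± 67.4 was 24.9% above the WT mean of 759.3 ± 68.7 (log2 difference 0.32), with HET at 786.1 ± 63.0. A processed pseudogene, Gm6746, lies within Cpne8 on the opposite strand.

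Csrnp2 (ENSMUSG00000044636, chr15:100479570-100495488, minus strand, 10.9 Mb from Shank3) measured 904.0, 941.4 and 994.4 normalized counts in WT, 902.2, 1041 and 1026 in HET, and 1080, 1170 and 1163 in KO. KO libraries were above the others, HET replicate 1 was at the level of the lowest WT library, and HET replicates 2 and 3 were between the WT and KO ranges. The KO mean of 1137 ± 50.1 was 20.2% above the WT mean of 946.6 ± 45.4, a log2 difference of 0.26 and the smallest of the 7 in size, with HET at 989.9 ± 76.3.

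**Figure D1:**
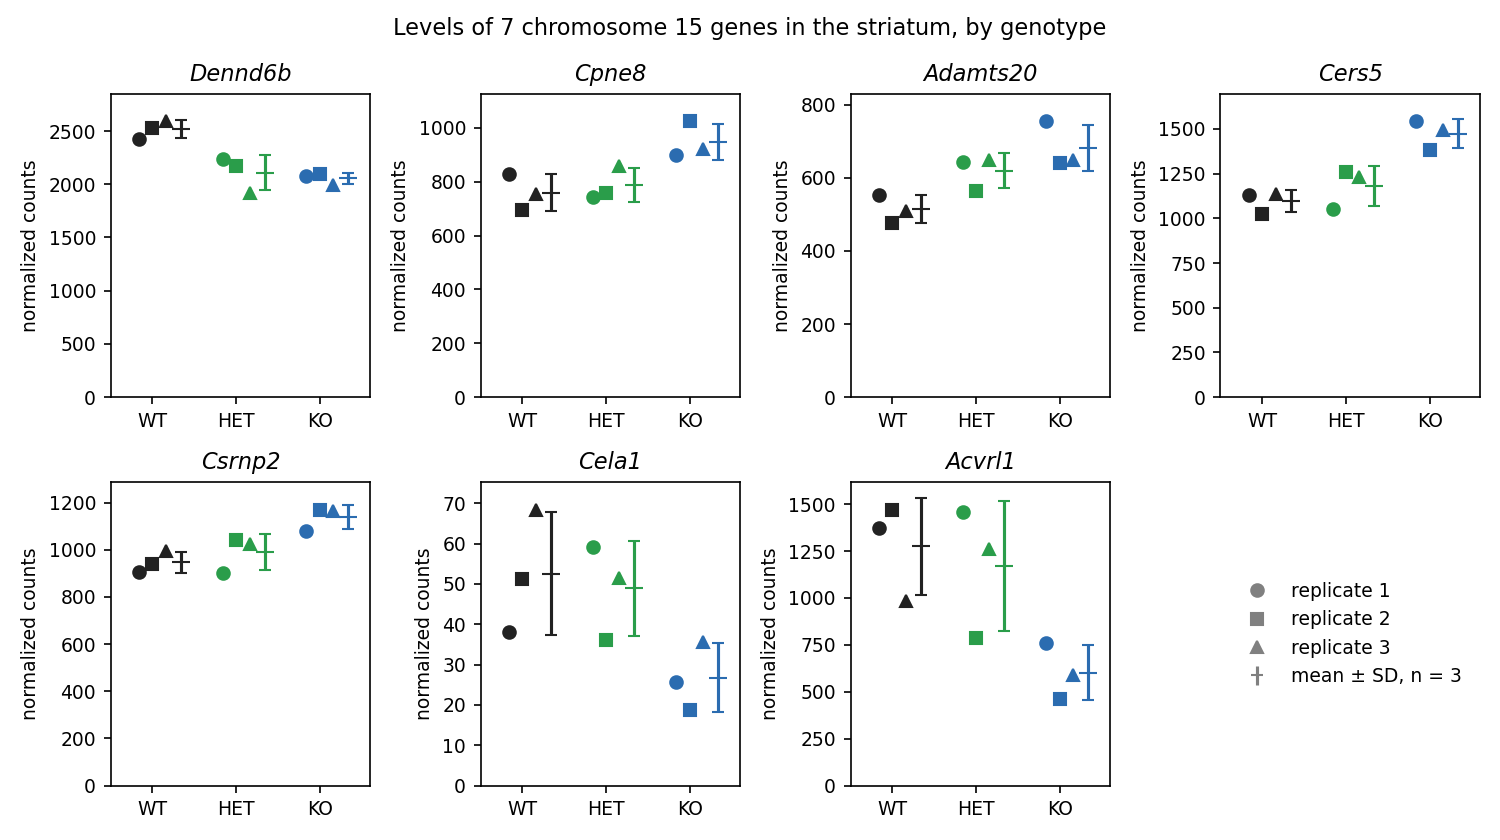
Normalized counts of the 7 genes (vertical axis, starting at 0) in WT, HET and KO libraries, with a point per library shaped by replicate number and the mean ± SD of 3 libraries beside them. KO libraries lie outside the WT range in each gene, by which the genes were chosen; HET libraries lie wholly outside the WT range in Dennd6b and Adamts20.

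Divided by the length of annotated exons, WT levels were highest for Dennd6b at 427 normalized counts per kb, followed by Cers5 at 310, Acvrl1 at 299, Csrnp2 at 216, Cpne8 at 182, Adamts20 at 57.1 and Cela1 at 22.8. The order of Cers5 and Acvrl1 was within the spread between WT mice, whose coefficient of variation was 5.67% for Cers5 and 20.2% for Acvrl1. Dennd6b stood at the 75.5th percentile of all tested genes on this scale and Cela1 at the 15.7th.

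The comparisons that the choice of genes does not fix are those with HET mice, which ask whether 1 intact Shank3 allele goes with intermediate levels. Genes with at least 10 normalized counts in at least 3 libraries, 14239 in all and the 7 among them, were fitted with limma over all 9 libraries, with Benjamini-Hochberg adjustment of p over that same number of genes. HET against WT shares its WT libraries with the choice of the genes, and KO against HET shares its KO libraries, so neither is independent of it. HET against the midpoint of WT and KO is the contrast whose estimate carries no part of the KO to WT difference. Its SE, interval and p rest on the spread over all 9 libraries, WT and KO included, so they are not free of the choice. A permutation test of 3 against 3 mice could not give a p below 0.1.

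In HET against WT, limma with Benjamini-Hochberg adjustment called 0 of the 7 genes at 0.05 (adjusted p = 0.999 in each) and 0% of all genes. At an unadjusted p under 0.05 stood 2 of the 7, Dennd6b and Adamts20, against 1.11% of all genes (158 of 14239) and 4.18% of the 622 genes on other chromosomes whose KO and WT libraries separated. Dennd6b was 0.26 lower in HET on the log2 scale (SE 0.09, 95% interval -0.45 to -0.07), rank 18 by p among all genes, and Adamts20 was 0.27 higher (SE 0.11, interval 0.02 to 0.52), rank 110. These are also the 2 genes in which all HET libraries lay outside the WT range, against 4.45% of all genes and 15.8% of those 622. The other 5 differed by 0.15 or less in size, from -0.15 for Acvrl1 (SE 0.25, interval -0.72 to 0.41) to 0.10 for Cers5 (SE 0.10, interval -0.12 to 0.32). Adamts20 lost the unadjusted threshold without WT replicate 2 or 3 or without HET replicate 1 or 3, while Dennd6b kept it without any single library, and the count over all genes reached 268, 289 and 394 without WT replicate 3, HET replicate 1 and HET replicate 2. Acvrl1 became higher in HET than in WT without HET replicate 2 (log2 difference 0.11).

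In KO against HET, libraries of the 2 genotypes did not overlap in 5 of the 7 genes, against 4.45% of all genes tested and 15.3% of the 622 genes on other chromosomes whose KO and WT libraries separated. As the 7 were chosen by their KO values, the share over all genes is not a level expected without a difference. The share of the 622 is not one either, as how the 7 were picked from the 21 separated genes is unknown. KO was above HET in Cpne8, Cers5 and Csrnp2 and below HET in Cela1 and Acvrl1. After Benjamini-Hochberg adjustment limma called 0 of the 7 at 0.05 (adjusted p = 1 in each) and 0% of all genes. At an unadjusted p under 0.05 stood Cpne8, Cers5, Cela1 and Acvrl1, 4 of the 7, against 1.31% of all genes (186 of 14239) and 5.95% of those 622. Acvrl1 was 0.94 lower in KO (log2 difference -0.94, SE 0.25, interval -1.50 to -0.37), rank 5 among all genes, next after Shank3, and Cela1 had a log2 difference of -0.86 (SE 0.32, interval -1.57 to -0.15). Cers5 was 0.32 higher (SE 0.10, interval 0.10 to 0.55), Cpne8 0.27 higher (SE 0.11, interval 0.03 to 0.51) and Csrnp2 0.20 higher (SE 0.09, interval -0.01 to 0.41). Dennd6b and Adamts20 differed by -0.03 and 0.14, with intervals that contain 0. Same-numbered HET and KO libraries deviated together, while WT replicates 2 and 3 did not deviate with theirs. With the replicate number as a block over all 9 libraries, WT included, 5 of the 7 genes and 318 of all genes stood under the unadjusted threshold. Without HET replicate 1 or KO replicate 2 only Cers5 and Acvrl1 stayed under it, Cpne8 also lost it and Csrnp2 reached it without HET replicate 2, and Cela1 lost it without HET replicate 3. The count over all genes was 303 without HET replicate 2 and 288 without HET replicate 3.

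The HET mean lay between the WT and KO means in all 7 genes, as it did in 9 of the other 14 separated genes within 15 Mb (64.3%) and in 66.1% of 622 separated genes on other chromosomes. Leaving out 1 library moved it outside them in 4 of the 7: beyond WT in Cpne8, Cela1 and Acvrl1, and beyond KO in Dennd6b. Against the midpoint of WT and KO, limma called 0 of the 7 after Benjamini-Hochberg adjustment (adjusted p = 1 in each) or before it. Over all genes tested, 0% passed the adjusted threshold and 1.38% (197 of 14239) the unadjusted one. Differences from the midpoint ran from -0.11 in Dennd6b, Cpne8 and Cers5 to 0.39 in Acvrl1 (SE 0.22, interval -0.10 to 0.88). For Acvrl1, Cela1, Cpne8, Cers5 and Csrnp2 the interval of HET against WT contains 0 as well, so that a HET level at the midpoint and one at the WT mean cannot be told apart. Without HET replicate 2, Acvrl1 was 0.65 above the midpoint and stood under the unadjusted threshold, and the count over all genes was 415; without HET replicate 1 that count was 301.

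Mean HET levels hid differences between the 3 HET mice, seen when each library was placed between the WT mean (0%) and the KO mean (100%) of a gene on the log2 scale. HET replicate 1 stood at 57.7% for Dennd6b and 80.8% for Adamts20, but on the far side of the WT mean from KO for Cers5 (-14.2%), Csrnp2 (-25.7%), Cela1 (-21.8%) and Acvrl1 (-19.9%), which are the 4 genes 10 to 15 Mb telomeric of Shank3. HET replicate 2 stood at 46.2%, 52.1%, 51.8% and 62.4% in the same 4 genes, about midway in each. HET replicate 3 stood at 39.5% and 44.5% for Cers5 and Csrnp2 and at -1.02% and -0.43% for Cela1 and Acvrl1. For Cpne8 the positions of HET replicates 1, 2 and 3 were -9.24%, 0.61% and 56.1%.

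**Figure D2:**
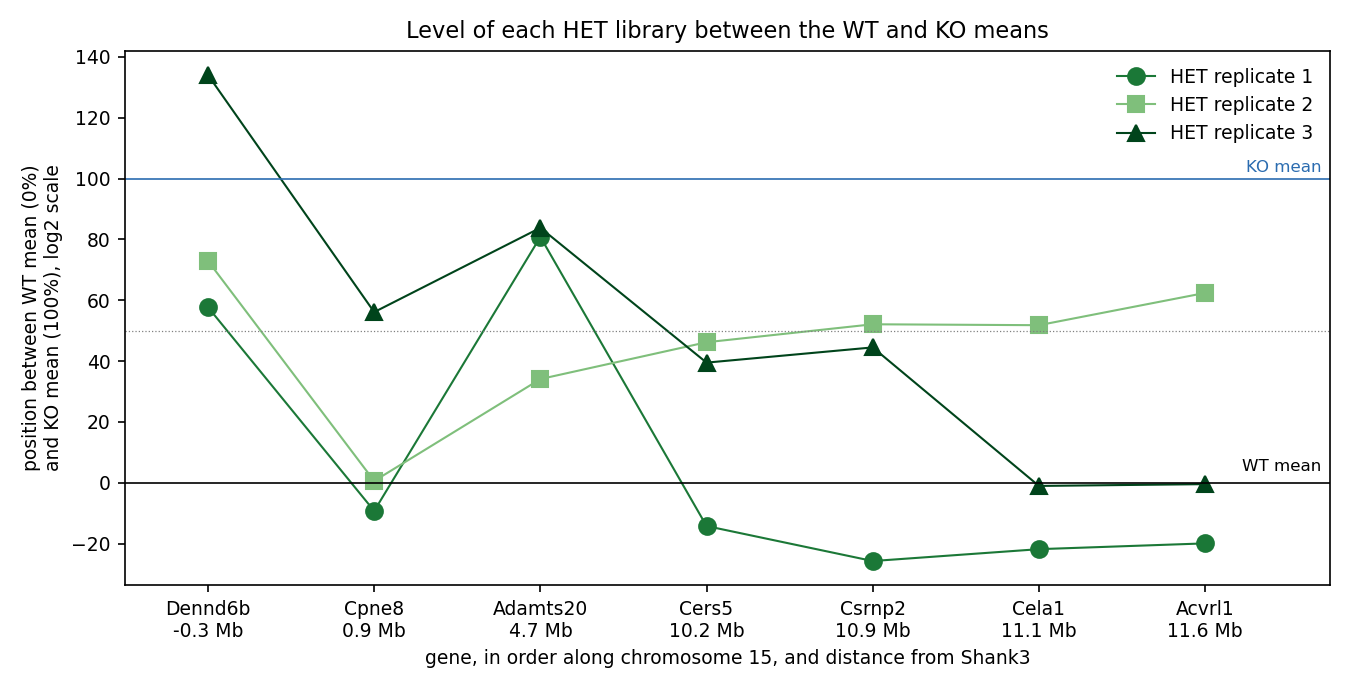
Position of each HET library between the WT mean (0%) and the KO mean (100%) on the log2 scale (vertical axis) for the 7 genes in their order along chromosome 15 (horizontal axis, with the distance from Shank3 in Mb); the dotted line is the midpoint. HET replicate 1 lies below the WT mean line in the 4 genes farthest from Shank3, from -25.7% to -14.2%, and also in Cpne8 (-9.24%). HET replicate 2 lies between 46.2% and 62.4% in those 4 genes.

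A HET library lay beyond the WT range on the KO side in 13 of the 21 pairings of gene and HET library. HET replicate 1 did so in 2 of the 7 genes (28.6%), HET replicate 2 in 6 (85.7%) and HET replicate 3 in 5 (71.4%). Among the 622 genes on other chromosomes whose KO and WT libraries did not overlap, the shares were 52.3%, 39.9% and 72.0% for HET replicates 1, 2 and 3. Among the 7 other separated genes 10 to 15 Mb telomeric they were 28.6%, 71.4% and 57.1%, and differences between these shares were not tested. Of those 7 genes, Slc11a2, an iron transporter gene 10.8 Mb from Shank3 that met the same condition, had its HET libraries at -0.52%, 58.4% and 53.1%. It measured 1959, 1970 and 2011 normalized counts in WT, 1984, 1598 and 1629 in HET, and 1321, 1461 and 1339 in KO. Letmd1 ran alike, at -18.6%, 26.2% and 39.0%. Npff, at -154%, 116% and 301%, also had HET replicates 2 and 3 beyond WT on the KO side, but past the KO mean. The others differed from Slc11a2 in which libraries were beyond WT on the KO side. Their positions were 239%, 137% and -178% in Racgap1, 42.7%, 18.5% and 202% in Myg1, 22.6%, -32.9% and -29.3% in Hnrnpa1, and -35.8%, 140% and -251% in Krt77. This grouping by position was made after the values were seen, and the difference between HET mice was not tested.

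Of the 7 genes, 6 lie on the telomeric side of Shank3, and from Dennd6b to Acvrl1 they span 12.0 Mb with 115 tested genes. Over all genes tested, KO libraries were wholly above WT in 2.02% and wholly below in 2.51%. By distance from Shank3, KO lay outside WT in 7 of 68 genes within 5 Mb (10.3%, 6 of them above WT), in 3 of 139 genes at 5 to 10 Mb (2.16%) and in 11 of 179 genes at 10 to 15 Mb (6.15%). The first 7 include Dennd6b, Cpne8 and Adamts20, chosen by this separation, and Shank3. Without these 4, 3 of 64 remain (4.69%), against 4.54% of all genes. All 4 had separated, so leaving them out lowers the share by construction, and the 2 shares are not a test. The last 11 were all on the telomeric side, where 70 genes were tested (15.7%), against 0 of 109 on the centromeric side. This split by side was not planned, and the telomeric part holds 4 of the 7 genes, so these 2 shares are not a test. With the 7 genes left out, the telomeric share was 7 of 66 (10.6%) and that of the whole 15 Mb was 14 of 379 (3.69%), against 1.57% on the rest of chromosome 15 and 4.55% on other chromosomes. Here too only separated genes were left out, which lowers the first 2 shares by construction. With them the share of the whole 15 Mb was 5.44%. The median size of the KO to WT difference was 0.13 at 10 to 15 Mb telomeric and 0.08 over all genes. That of the HET to WT difference was also larger there, 0.108 against 0.088 over all genes. HET libraries lay outside WT in 0 of these 70 telomeric genes, and in 4.45% of all genes. Without HET replicate 1, 2 or 3 this was 14 of 70 (20.0%), 8 (11.4%) and 7 (10.0%), against 14.7%, 15.9% and 13.6% of all genes, without WT replicate 1, 2 or 3 it was 4.29%, 8.57% and 7.14%, against 10.0%, 11.1% and 13.9%, and after scaling to the median total it was 2.86%, against 4.28%. The share was thus above that of all genes without HET replicate 1 and below it in the other settings.

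These counts rest on few libraries. Without KO replicate 3, alone or together with HET replicate 3, they were 9, 17 and 29 in the 3 distance ranges, and 21 of 70 (30.0%) at 10 to 15 Mb telomeric, while the share over all genes was 13.4% because 2 libraries are more easily separated than 3. Scaled to the median total, the library sums being made equal, the telomeric count was 9 of 70 (12.9%), or 5 of 66 (7.58%) with the 7 genes left out, and the centromeric count 2 of 109. Without single WT or KO libraries the centromeric count was 5 to 11 of 109 (4.59% to 10.1%) and the telomeric count 16 to 21 of 70 (22.9% to 30.0%), against 9.65% to 15.8% of all genes. In these settings the telomeric count with the 7 genes left out was 12 to 17 of 66 (18.2% to 25.8%). After scaling, over all genes 387 were above and 221 below WT, against 288 and 358 as deposited.

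**Figure D3:**
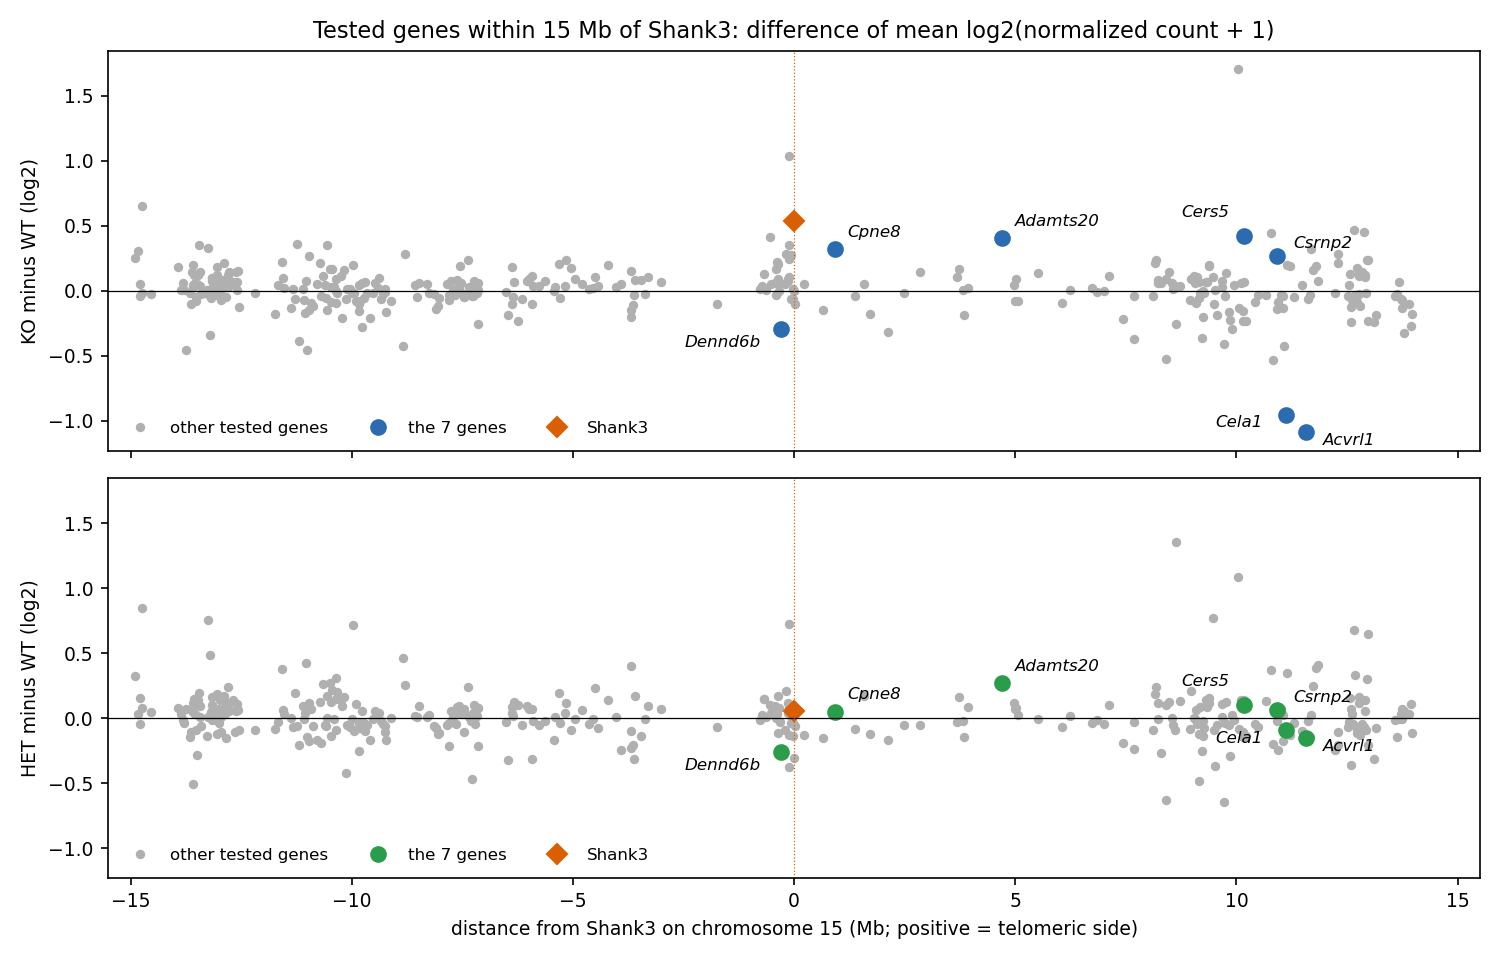
Difference of mean log2(normalized count + 1) from WT in KO (upper panel) and HET (lower panel) for 386 tested genes (a point per gene) against their distance from Shank3 on chromosome 15, telomeric side positive. The 7 genes and Shank3 are marked; in KO Acvrl1 (-1.09) and Cela1 (-0.95) lie lowest and in HET the 7 lie between -0.26 and 0.27.

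Of the 14 nearest tested genes on either side of the 7, 13 had KO and WT libraries that overlapped, and 1 (7.14%) had libraries that separated, against 4.54% of all genes. This was Letmd1, next to Csrnp2, with 1578, 1588 and 1571 normalized counts in WT and 1478, 1413 and 1420 in KO (log2 difference -0.14), opposite in direction to Csrnp2. Slc11a2, the tested gene on the other side of Letmd1, also separated and was lower in KO, so that 3 consecutive tested genes did. Acvrl1 lies between Fignl2 (0.04) and Acvr1b (-0.06), the latter encoding the activin receptor ALK4, and Cela1 between Bin2 (-0.43) and Galnt6 (0.20), in KO to WT log2 differences. Cers5 lies between Cox14 (0.07) and Lima1 (-0.23), and Tfcp2 (-0.09) follows Csrnp2. Adamts20 has Prickle1 (0.03) and Pus7l (0.05) beside it, Cpne8 has Alg10b (-0.14) and Kif21a (-0.04), and Dennd6b has Plxnb2 (0.06) and Ppp6r2 (0.05).

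The other 14 genes within 15 Mb whose KO and WT libraries did not overlap differed by less than Acvrl1 in size. The lowest in KO were Slc11a2 (log2 difference -0.53), Fam186b (-0.41), Bcdin3d (-0.29), Npff (-0.23) and Letmd1 (-0.14). The highest were Klhdc7b (1.03, from 4.28 to 13.1 normalized counts in WT and 15.4 to 16.5 in KO), Shank3 (0.54), Sbf1 (0.28), Pnpla3 (0.21) and Krt77 (0.21). Just outside the condition was Trabd, whose highest WT library of 680.3 and lowest KO library of 680.2 met, then Spats2 (701.0 in the lowest WT and 701.2 in the highest KO library), and just inside it among the 7 was Cela1.

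Related genes were described from lists by function, named by WT level per kb of exon and by HET to WT difference. In the 3 comparisons with HET, limma with Benjamini-Hochberg adjustment called 0 of their genes at 0.05. Of the ALK1 pathway, 21 of 23 genes were tested, comprising co-receptors, type II receptors, Smad proteins and targets. Their median KO to WT log2 difference was -0.02, against 0.005 over all genes, with a range of -0.39 to 0.19. KO and WT libraries separated in 0 of the 21, against 4.54% of all genes. The median HET to WT difference was 0.04, against -0.003 over all genes. The co-receptor endoglin (Eng) measured 974.2 in WT and 1144 in KO and the inhibitory Smad6 41.6 and 44.5 (0.22 and 0.36 higher in HET than in WT on the log2 scale, SE 0.30 and 0.31). HET replicate 3 (1720) and KO replicate 3 (1603) carried the difference in Eng, whose other 7 libraries ran from 752.4 to 1117. The targets Id2 and Hey1 measured 2183 and 1706 in WT and 2157 and 1641 in KO.

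Acvrl1 was also set against the cells known to express it. All 10 endothelial markers were present, led by Flt1 at 2362 normalized counts, and their sum was 7006, 7663 and 7369 in WT, 7117, 8331 and 8468 in HET and 7154, 7555 and 7720 in KO. KO and WT overlapped in all 10, with a median log2 difference of 0.006, while they separated in 4.54% of all genes. Per 100 counts of that sum, Acvrl1 stood at 19.6, 19.2 and 13.4 in WT, 20.5, 9.42 and 14.9 in HET, and 10.6, 6.12 and 7.62 in KO. The endothelial sum hardly differed between KO and WT, so this ratio keeps the separation by which Acvrl1 was chosen and does not test the share of endothelial cells. On this scale HET replicate 2 was below KO replicate 1, so that HET and KO overlapped. For pericytes and smooth muscle, the summed level of 6 markers was 5109 ± 258 in WT and 5281 ± 199 in KO. KO and WT libraries separated in 2 of the 6 (33.3%), Rgs5 and Abcc9, both higher in KO, against 4.54% of all genes in either direction.

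Among 29 other enzymes of ceramide and sphingolipid metabolism, 26 were tested. Their median log2 difference was 0.04 in KO against WT and 0.10 in HET against WT, where 21 of 26 were higher (80.8%, against 49.3% of all genes; not tested). KO and WT libraries separated in 2 (7.69%, against 4.54% of all genes): Sptlc2, a subunit of the first enzyme of sphingolipid synthesis, was 0.21 higher, and the sphingomyelinase gene Smpd1 differed by -0.11. HET and WT libraries separated in 3 of 26 (11.5%, against 4.45% of all genes), Sgms1, Sgms2 and Sgpl1; these genes and those of the following lists that separated are named after their values were seen. The myelin lipid enzyme gene Ugt8a was 0.37 higher in HET (SE 0.18), and the sum of 6 oligodendrocyte markers, led by Mbp, was 190716 ± 54705 in WT, 232777 ± 14706 in HET and 195330 ± 55170 in KO; the part of oligodendrocyte RNA in these differences was not tested. Cers1, the ceramide synthase of neurons, measured 3662 ± 167 in WT and 3746 ± 650 in KO, the neutral sphingomyelinase gene Smpd3 differed by -0.03 in HET, and the ceramidase gene Acer3 was 0.34 higher there with WT libraries from 126.3 to 264.0.

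Of 22 ADAMTS proteases and their lectican substrates, 21 were tested, with a median KO to WT log2 difference of 0.08. Bcan and Ncan, which encode the proteoglycans brevican and neurocan, differed by 0.08 and 0.02. HET and WT separated in 1 of the 21, Adamts8, against 4.45% of all genes. Adamts19 differed by -1.52 in KO and -1.10 in HET, with WT libraries spread from 8.13 to 92.0 normalized counts, and Adamts7 was 0.55 higher in HET (SE 0.40). The 8 other copine genes had a median of 0.07 in KO and -0.003 in HET. In HET against WT, 1 of the 8 stood under the unadjusted threshold, against 1.11% of all genes. This was Cpne6, a neuronal copine, lower in HET by a log2 difference of -0.47 (SE 0.18). Cpne5 and Cpne4 differed in HET by 0.06 and -0.22. Of 18 genes of DENN domain proteins and their Rab partners, 17 were tested, with a median of 0.02 in both comparisons with WT. KO separated from WT in 1 of the 17, Dennd4b (0.20), against 4.54% of all genes. In HET, Dennd5a, Rab35, Rab11a and Dennd3 differed by 0.19, 0.02, 0.27 and -0.23. HET replicate 3 carried the difference in Rab11a, at 5471 against 2403 and 2454 in the other HET and 2473 to 2822 in the WT libraries, and in Dennd5a, at 14307 against 9415 and 9884. The 2 relatives of Csrnp2, Csrnp1 and Csrnp3, differed by 0.15 and -0.04 in KO, and of 8 elastase and chymotrypsin genes only Ctrl was in the table, at 14.9 ± 6.85 in WT and 16.3 ± 4.41 in KO.

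Among tested markers of the other cell types, KO and WT libraries overlapped in every gene, while they separated in 4.54% of all genes. Their sums in WT and KO were 42938 ± 5859 and 44256 ± 8261 for cortical glutamatergic neurons, 54727 ± 6096 and 56939 ± 4816 for astrocytes, 10930 ± 508 and 10718 ± 550 for microglia, 2651 ± 1171 and 2223 ± 357 for blood, and 256.4 ± 14.1 and 241.3 ± 75.0 for choroid plexus. The most abundant of these markers were Slc17a7, Aldoc, Csf1r, Hba-a2 and Clic6.

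Over the 9 libraries, which share the genotype difference, the genes most like each of the 7 in log2 level lay on other chromosomes. By Pearson's r, given as a description, these were Plekha7 (0.964) and Sptlc2 (0.948) for Cpne8, Mre11a (0.951) and Aars2 (0.910) for Adamts20, Ypel4 (0.943) and Crhr2 (0.923) for Cers5, and Sgpp2 (0.917) and Camk4 (0.916) for Acvrl1. For Dennd6b they were Mov10 (0.911) and Yrdc (0.897), for Csrnp2 Itpk1 (0.909) and Mfap2 (0.905), and for Cela1 Llph (0.897) and Nutf2 (0.877). Sptlc2 and Sgpp2 encode enzymes of sphingolipid metabolism. Among the 7 themselves r was largest in size between Csrnp2 and Acvrl1 (-0.937), then between Cers5 and Csrnp2 (0.875), and Dennd6b and Cela1 had an r of 0.474.

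Promoter sequence, which the choice did not use, was taken from RefSeq (GRCm38.p6) as 250 bases before to 50 after the start of each gene and was found for 6 of the 7; Acvrl1 had no entry. Both strands were searched for 3 core promoter motifs. A GC box, with the letters GGGCGG, was found in 5 of the 6 promoters, against 35.7% of 32851 mouse promoters. A CCAAT box was found in Adamts20 alone, against 37.4%, and a TATA box, with the letters TATAAA, in Cela1 alone, against 13.6%. GC content was 49.0% in Cela1 and ran from 64.0% in Dennd6b to 77.3% in Adamts20 in the others, against a median of 52.7%. The 32851 promoters were not limited to the genes tested or matched to the 6 for GC content. Their shares are thus not a level expected for these 6. In genome coordinates the RefSeq start of Adamts20 lies at -61068 bases from its outermost GENCODE start, inside the gene, and those of Cers5 and Csrnp2 at -370 and -249 bases, so that other starts were not covered and the sequences of Cers5 and Csrnp2 below lie almost wholly inside the annotated genes. The promoters of Cers5 (chr15:99772466-99772765) and Csrnp2 (chr15:100495190-100495489), higher in KO, and that of Cela1 (chr15:100687871-100688170), lower in KO, all on the minus strand, are shown because these 3 lie near each other and differed from WT in different directions, with GC boxes or the TATA box in capitals on either strand.
Cers5: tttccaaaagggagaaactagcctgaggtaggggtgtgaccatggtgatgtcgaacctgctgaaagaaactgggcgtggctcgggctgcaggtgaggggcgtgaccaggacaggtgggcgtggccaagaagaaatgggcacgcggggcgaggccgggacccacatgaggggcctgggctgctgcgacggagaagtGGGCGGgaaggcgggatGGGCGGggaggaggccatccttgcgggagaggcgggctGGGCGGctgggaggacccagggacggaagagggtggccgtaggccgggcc
Csrnp2: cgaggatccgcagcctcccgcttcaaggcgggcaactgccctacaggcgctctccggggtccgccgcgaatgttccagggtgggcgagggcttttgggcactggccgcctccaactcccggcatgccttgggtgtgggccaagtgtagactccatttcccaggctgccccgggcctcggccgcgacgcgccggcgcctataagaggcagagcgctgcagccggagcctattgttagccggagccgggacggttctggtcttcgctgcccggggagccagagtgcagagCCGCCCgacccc
Cela1: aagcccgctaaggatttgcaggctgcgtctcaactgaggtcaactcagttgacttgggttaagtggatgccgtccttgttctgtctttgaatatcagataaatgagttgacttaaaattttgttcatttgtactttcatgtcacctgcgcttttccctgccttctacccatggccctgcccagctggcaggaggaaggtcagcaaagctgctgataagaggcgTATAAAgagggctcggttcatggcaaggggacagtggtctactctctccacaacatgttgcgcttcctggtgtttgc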

How the data were processed

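The striatum of 3 WT, 3 HET and 3 KO mice was measured by stranded mRNA sequencing with paired-end reads. The signal deposited by the authors, in normalized counts, came from Salmon 0.9.1 on GRCm38 with GC bias correction, followed by tximport and division by DESeq2 1.19.11 size factors in R 3.6.0. Low values did not resolve into whole reads, so no count test was used, depth is unknown, and precision comes from the spread between mice.

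Samples were grouped by their labels and columns were matched by name, with 0 unused. No gene had the same value above 0 in any 2 libraries. Symbols and coordinates came from GENCODE vM21 (GRCm38) for 15457 genes, and 7 had none. log2(normalized count + 1) was fitted with limma 3.58.1 (trend, no covariate) in R 4.3.3, for genes with at least 10 in at least 3 libraries, with a threshold of 0.05 after Benjamini-Hochberg adjustment. The script was tested on simulated data. Figures were drawn with matplotlib 3.10.9.

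The 7 genes, the pathway and marker lists, and the tests were chosen with earlier results of these data known. Named genes were the 7, Shank3, Slc11a2, the nearest tested neighbours and the 2 genes of highest Pearson r with each of the 7. Also named were the 5 lowest and 5 highest of the other separated genes within 15 Mb. In each pathway list they were the 2 of highest WT level per kb of exon and the 2 of largest HET to WT difference. Others were named after their values were seen. Lists covered the pathways and the medium spiny, endothelial, pericyte, choroid plexus, cortical, oligodendrocyte, astrocyte, microglia, blood and pancreatic markers.

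Deviations from the genotype means correlated between same-numbered HET and KO libraries at 0.515, 0.281 and 0.506. These 3 values are not independent, as the deviations are from means of 3 libraries. HET replicate 3 and KO replicate 3 also both stood apart on the main axis of variation. The values thus do not show that the numbers pair HET with KO, and what the numbers stand for is not given in the sources used here. For WT and KO the correlations were 0.243, -0.221 and 0.024, and for WT and HET 0.319, -0.014 and 0.005. Alternatives were pseudocounts of 0.5 and 5, no filter or one of 50, quantile normalization, scaling to the median total, other variance priors, a replicate block, the compared genotypes alone and leaving out libraries.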

Additional observations from a re-analysis of the deposited data

How the results depend on the processing

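Over 20 alternative settings, the KO to WT difference kept its sign in 140 of 140 values of the 7 genes, a direction fixed by their choice, HET against WT in 134 of 140, KO against HET in 139 of 140 and HET against the midpoint in 133 of 133. The median size of the KO to WT difference was 0.41 and ran from 0.355 to 0.449 without single libraries. No scaling moved the median of all genes by over 0.1.

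HET against WT reversed in 3 genes. Cpne8 stood at -0.013 without WT replicate 2, -0.014 without HET replicate 3, -0.014 without HET replicate 3 and KO replicate 3, and up to 0.117 without WT replicate 1. Cela1 stood at 0.115 without WT replicate 3 and 0.109 without HET replicate 2, and down to -0.301 without WT replicate 1. Acvrl1 stood at 0.110 without HET replicate 2 and -0.337 without HET replicate 1. KO against HET reversed for Dennd6b, to 0.010 without HET replicate 1, against -0.101 without HET replicate 3. The cause was not tested. Leaving out HET replicate 3 with KO replicate 3 was added after seeing the data, as was leaving out each library for the chromosome counts.

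The count of genes with an adjusted p under 0.05 (limma, Benjamini-Hochberg) was 0 for HET against WT and KO against HET in every setting. For HET against the midpoint it was 1 without KO replicate 2, where Flnc differed by 5.56 (adjusted p = 0.0472), and 0 in the others. With the replicate block, counts at an unadjusted p under 0.05 moved from 158 to 365 for HET against WT, from 186 to 318 for KO against HET and from 197 to 356 for HET against the midpoint, with no call changed. Leaving out HET replicate 3 with KO replicate 3 gave 275 for HET against WT. Adamts20 also lost the unadjusted threshold in HET against WT with scaling to the median total or the compared genotypes alone, and Csrnp2 reached it in KO against HET with the block, that scaling or without HET replicate 2.

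Numbers of genes with KO outside WT ran, without single libraries, from 7 to 16 within 5 Mb of Shank3, from 3 to 17 at 5 to 10 Mb, from 11 to 31 at 10 to 15 Mb and from 21 to 62 in all (5.44% to 16.1%), while the share over all genes ran from 4.54% to 15.8%. Without HET replicate 3 and KO replicate 3 they were 9, 17, 29 and 55. Fewer libraries are separated more often. Depth is unknown. The coefficient of variation of Cela1, the least expressed of the 7, was 29.0% in WT, 24.1% in HET and 31.6% in KO. That of Acvrl1 was 20.2%, 29.7% and 24.6%.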
